A study of Mus musculus with 23 samples.

Results

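This account concerns OT-I and OT-II T cells from mice given the molar-equivalent dose of free ovalbumin (OVA), set against the same cells from mice given saline. The libraries were chosen by their labels alone, 6 with molar-equivalent OVA and 6 with saline, which makes 12 of the 23 libraries of the series. There were 3 libraries of OT-I and 3 of OT-II cells with molar-equivalent OVA, and 3 of OT-I and 3 of OT-II cells with saline. OT-I is a CD8 and OT-II a CD4 line of T cells, and both carry a transgene-encoded receptor that recognises an OVA peptide. In every group the transgenic cells had been transferred into mice, which were injected 1 day after the transfer, and which the labels give as wild type and C57BL/6. The cells were sorted by FACS 5 days after the transfer, from pooled spleens and lymph nodes. Each library holds the RNA of 3 mice, made into cDNA by the SmartSeq protocol. The other treatments were a higher dose of OVA (5 libraries) and 1 ug of A8B1-OVA (6 libraries), to which the molar-equivalent dose was matched. The titles give the OVA doses as 0.5 and 5 without a unit, and no label defines A8B1. Ages and sexes of the mice were not stated either. The labels tie no OT-I library to the mice of an OT-II library, and p-values here measure the spread between pools of mice.

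A T cell that binds its peptide through the T cell receptor first switches on immediate-early genes such as Fos, Jun and Egr1, then genes of activation, and in many settings enters the cell cycle. Antigen met without inflammation can instead leave the cell anergic, a state marked by inhibitory receptors such as PD-1, LAG-3 and CTLA-4 and by surface proteins such as FR4 and CD73. Free soluble protein has to be taken up and presented by other cells before either cell type can see it, and OT-I and OT-II cells differ in the MHC class that presents to them.

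The 12 libraries held 26584040 to 68228283 estimated counts over protein-coding genes, and replicate 2 of OT-I with molar-equivalent OVA had the lowest total. The labelled cell types were borne out by their markers. Cd8a, a subunit of the CD8 coreceptor, had 950 to 1260 CPM in OT-I libraries and 1.39 to 7.41 CPM in OT-II libraries, where CPM is a count scaled to library size with TMM factors. Cd4 had 539 to 631 CPM in OT-II libraries and 1.10 to 10.3 CPM in OT-I libraries. Within the cell types, the summed level of the 20 B cell markers stood apart in 1 library, at 3420 CPM in replicate 2 of OT-I with molar-equivalent OVA, and it ran from 333 to 1280 CPM in the other 11 libraries. Myeloid markers summed to 1480 CPM in that library and to 1170 CPM in OT-II saline replicate 1, against 307 to 759 CPM elsewhere. These 2 libraries, OT-I saline replicate 1 and OT-II molar-equivalent OVA replicate 3 are called the libraries with raised markers, and were left out together as an alternative. No pair of replicates was identical, with a chi-square per degree of freedom of 33.2 to 135 between replicates of these groups.

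In the fit of all 12 libraries with cell type as covariate, no gene was called between molar-equivalent OVA and saline. edgeR's quasi-likelihood test called 0 of 14266 genes at a Benjamini-Hochberg adjusted p under 0.05, a share of 0%, and the lowest adjusted p was 0.694. An unadjusted p under 0.05 was found for 451 genes, where 713 would lie under it if p-values were spread evenly. Of these, 193 were higher with molar-equivalent OVA (1.35% of genes tested) and 258 were lower (1.81%). limma-voom also called 0 genes, with 549 at an unadjusted p under 0.05. DESeq2 called 7 genes, of which 5 were lower with molar-equivalent OVA (Pim1, Jun, Frat2, Tob2 and Fos) and 2 were higher (Ctnnbip1 and Gm49391). The median log2 fold change over all genes was 0.0111. In bulk libraries, fewer cells of a type and less RNA per cell cannot be told apart.

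**Figure D1:**
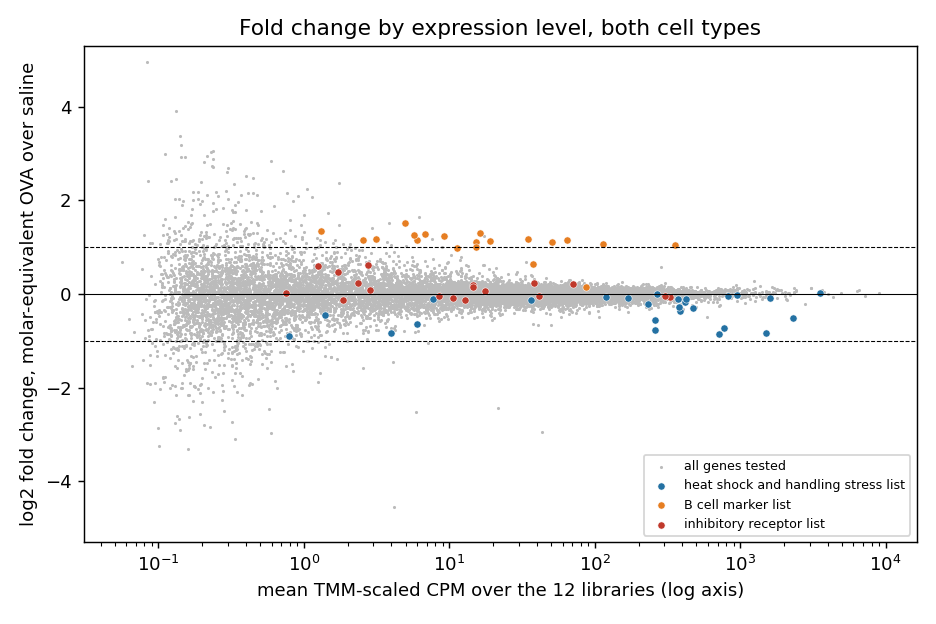
Each point is a gene tested in the 12 libraries, with its mean TMM-scaled CPM on a log axis and its log2 fold change of molar-equivalent OVA over saline. Dashed lines mark a 2-fold difference, 2 genes lie outside the vertical axis, and the spread narrows with level while B cell markers lie above 0 and the heat shock and handling stress list lies mostly below 0.

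The size of difference that the data leave room for depended on the level of the gene. The 95% interval of the fold change lay wholly within 2-fold in either direction for 10671 of 14266 genes (74.8%). Among the 6025 genes with a mean of 10 to 100 CPM this held for 5964 (99%), and among the 2426 genes above 100 CPM for 2415 (99.5%). It held for 1880 of 2684 genes at 1 to 10 CPM (70%), but only for 412 of 3131 genes under 1 CPM (13.2%). For most genes under 1 CPM the interval left room for a 2-fold difference. The narrower bound of 1.5-fold held for 94% of genes at 10 to 100 CPM and for 98.1% of those above. At a mean of 10 CPM or more, 14 genes had an estimate beyond 2-fold. They were chosen for that estimate, and were 11 B cell or MHC class II genes (among them Cd79a, Cd74, Ms4a1, Cd22 and H2-Aa) and the genes Gm17571, Cd80 and Plekhg3, which were highest in OT-II saline replicate 1.

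Inhibitory receptors and genes tied to anergy were not called. The panel of 39 genes of tolerance, activation and T cell state had 0 calls with edgeR, 1 gene higher and 2 lower at an unadjusted p under 0.05, and a median log2 fold change of 0.05. Its estimates ran from -0.64 for Ifng, the gene of interferon gamma, to 0.84 for Zbtb32, a transcriptional repressor raised in activated lymphocytes. For 31 of the 39 genes the interval lay within 2-fold. The inhibitory receptor list of 18 genes also holds some that are not receptors, such as Cd200, a ligand, and Entpd1, an enzyme. Over that list the median log2 fold change was 0.08, with 11 genes above 0 and 7 below. Over the 27 anergy-associated genes the median was 0.03, with 16 above and 11 below. Over all genes tested, 53.2% were above 0.

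Pdcd1, which encodes PD-1, had 2.22, 3.82 and 7.47 CPM in OT-I cells with molar-equivalent OVA, against 3.88, 5.13 and 3.34 CPM with saline. In OT-II cells Pdcd1 had 18.9, 15.8 and 11.2 CPM with molar-equivalent OVA and 29.3, 13.8 and 12.3 CPM with saline. The groups overlapped in both cell types, with a log2 fold change of -0.08 and a 95% interval of -0.71 to 0.56. Lag3, an inhibitory receptor for MHC class II, had 0.277, 0.741 and 1.82 CPM in OT-I cells with molar-equivalent OVA, against 0.470, 0.537 and 0.359 CPM with saline, and in OT-II cells 0.710, 0.554 and 0.357 CPM with molar-equivalent OVA, against 1.20, 0.849 and 1.22 CPM with saline. The OT-I groups overlapped, whereas all 3 OT-II libraries with molar-equivalent OVA lay below all 3 with saline. Such a separation within 1 cell type was common. It was found in the lower direction for 4.23% of genes tested in OT-II and 2.71% in OT-I. In the higher direction the shares were 3.81% and 2.37%. At the levels of Lag3 the interval of the joint log2 fold change was wide, -1.07 to 1.09.

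Ctla4, which encodes the receptor that competes with CD28, had 8.06, 7.82 and 18.9 CPM in OT-I cells with molar-equivalent OVA, against 11.1, 6.50 and 8.02 CPM with saline. In OT-II cells it had 17.1, 19.7 and 18.3 CPM with molar-equivalent OVA, against 23.3, 15.5 and 21.7 CPM with saline. Its log2 fold change was 0.15 (95% interval -0.34 to 0.65), and groups overlapped in both cell types. Izumo1r, the gene of FR4, had 4.82, 9.48 and 11.4 CPM in OT-I cells with molar-equivalent OVA, against 7.88, 5.07 and 5.19 CPM with saline, and in OT-II cells 57.1, 67.2 and 61.1 CPM with molar-equivalent OVA, against 69.4, 46.1 and 50 CPM with saline. Its log2 fold change was 0.32 (-0.09 to 0.74). Nt5e, the gene of CD73 and the partner of FR4 as a marker of anergic CD4 cells, was below saline at an unadjusted p under 0.05, as was Klf2, a transcription factor of resting T cells (log2 fold change -0.23). Nt5e had 17.0, 15.6 and 10.5 CPM in OT-I cells with molar-equivalent OVA, against 15.1, 17.2 and 23.7 CPM with saline, and in OT-II cells 10.6, 11.3 and 12.9 CPM with molar-equivalent OVA, against 25.2, 13 and 14.4 CPM with saline. The OT-II groups did not overlap, and the log2 fold change of both cell types was -0.49 (-0.88 to -0.10, adjusted p = 1 in edgeR).

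Among the remaining surface proteins, Nrp1 (neuropilin-1) had a log2 fold change of 0.16 (-0.27 to 0.59) and Cd200, an immune inhibitory ligand, one of 0.20 (-0.20 to 0.61). Btla, an inhibitory receptor that binds HVEM, was the inhibitory receptor with an unadjusted p under 0.05. Its OT-I levels were 78.9, 72.5 and 71.4 CPM with molar-equivalent OVA and 62.4, 70.2 and 65.3 CPM with saline, and its OT-II levels were 72.4, 76.0 and 84.1 CPM with molar-equivalent OVA and 72.5, 63.7 and 60.0 CPM with saline. The OT-I groups did not overlap and the OT-II groups overlapped by 1 library, with a log2 fold change of 0.21 (0.06 to 0.36, adjusted p = 1 in edgeR). Tox, a transcription factor of chronically stimulated T cells, was measured closely at 86.1 to 112 CPM with molar-equivalent OVA and 80.8 to 108 CPM with saline. Its log2 fold change was 0.03 (-0.10 to 0.16).

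**Figure D2:**
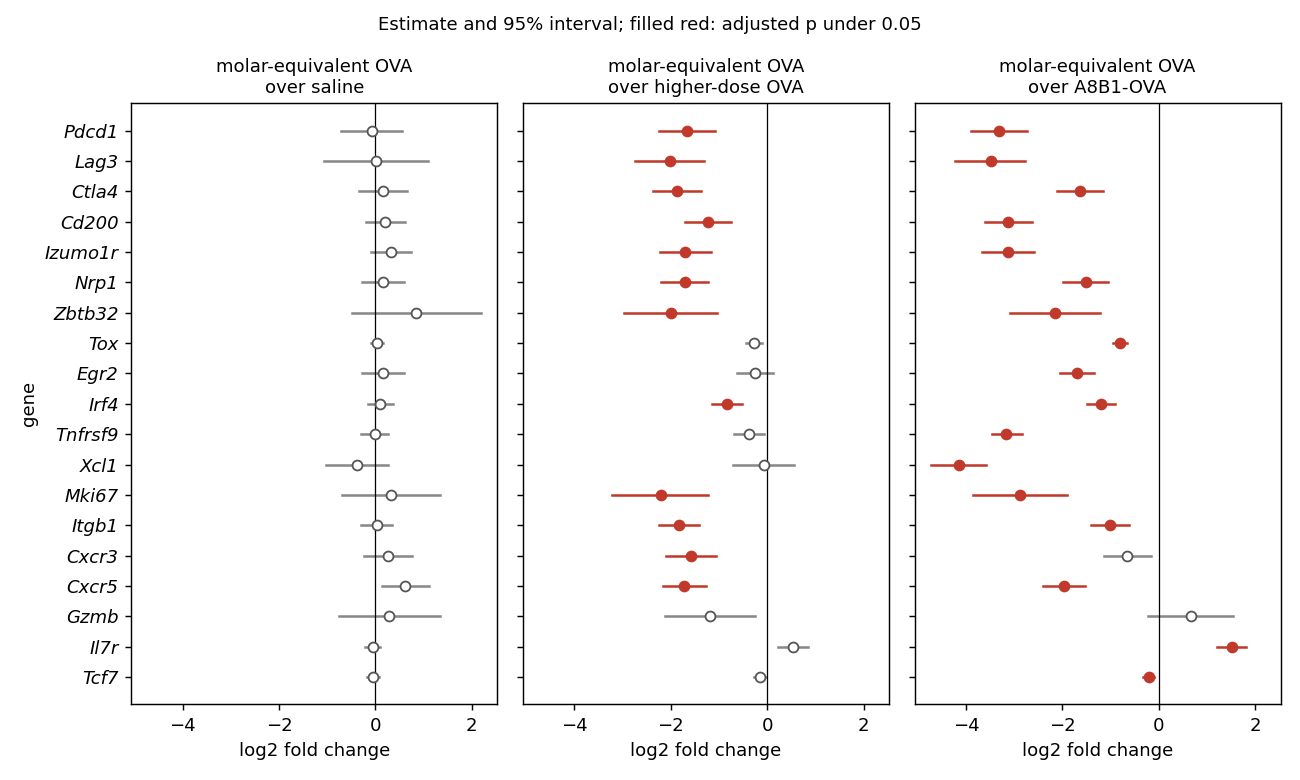
Points are log2 fold changes of molar-equivalent OVA with 95% intervals, over saline (left), over higher-dose OVA (middle) and over A8B1-OVA (right). The 19 genes have roles in T cell state and were chosen with results of these data known. Which of them pass is therefore a description. Filled red points have an adjusted p under 0.05 in edgeR: none of the 19 in the left panel, and Pdcd1, Lag3, Ctla4 and Cd200 among those below 0 in both others.

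Genes of receptor signalling, division and effector function gave the same count of 0 calls. The 32 genes of receptor signalling and early activation had a median of -0.08, with 0 at an unadjusted p under 0.05 higher and 5 lower. Over all genes tested the shares were 1.35% higher and 1.81% lower. The 4 members with the lowest p were Jun, Fos, Junb and Fosl2. Jun and Fos are also in the heat shock and handling stress list below, so the 2 lists are not separate results. Egr2, a transcription factor induced by the receptor and tied to anergy, had a log2 fold change of 0.15 (-0.28 to 0.59). Irf4, whose level follows the strength of receptor signals, had 12, 12.6 and 12.7 CPM in OT-I cells with molar-equivalent OVA, against 10.8, 12.1 and 9.54 CPM with saline, and in OT-II cells 19.6, 13.7 and 13 CPM with molar-equivalent OVA, against 14.6, 15.5 and 16 CPM with saline. Its log2 fold change was 0.10 (-0.16 to 0.36). Tnfrsf9, the gene of the costimulatory receptor 4-1BB, had one of -0.02 (-0.30 to 0.27). Xcl1, a chemokine of activated CD8 cells, had one of -0.39 (-1.03 to 0.25).

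The 50 cell cycle genes had a median log2 fold change of 0.11, with 36 above 0 and 14 below, and none had an unadjusted p under 0.05. Mki67, a marker of dividing cells, had 6.62, 7.97 and 12.4 CPM in OT-I cells with molar-equivalent OVA, against 5.22, 9.57 and 3.72 CPM with saline. In OT-II cells Mki67 had 0.905, 4.08 and 2.86 CPM with molar-equivalent OVA and 5.31, 0.588 and 1.54 CPM with saline. Groups overlapped in both cell types, and the interval of -0.70 to 1.33 around the log2 fold change of 0.32 leaves room for a 2-fold increase. Of 30 naive and memory-associated genes 0 were called. At an unadjusted p under 0.05, 0 were higher and 2 lower, against 1.35% and 1.81% of all genes tested, and Klf2 above was among the lower ones. The resting-state genes Il7r and Tcf7 were tightly bounded. Il7r, the receptor for the survival cytokine IL-7, had a log2 fold change of -0.06 (-0.22 to 0.10) and Tcf7, the gene of TCF-1, one of -0.05 (-0.18 to 0.07). The 41 interferon-stimulated genes had a median of 0.08, with 34 above 0 and none at an unadjusted p under 0.05.

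A single OT-I library carried high effector transcripts. Gzmb, the gene of granzyme B, had 4.92, 8.82 and 28.6 CPM in OT-I cells with molar-equivalent OVA, against 7.77, 6.96 and 5.57 CPM with saline. Cxcr3, a chemokine receptor of effector and memory cells, had 63.4, 68.9 and 131 CPM in OT-I cells with molar-equivalent OVA, against 58.6, 54.4 and 59.4 CPM with saline. Replicate 3 was the highest library for both genes. It was also the highest for Zbtb32, with 0.850, 1.48 and 8.63 CPM with molar-equivalent OVA against 1.74, 0.492 and 0.982 CPM with saline, and for Pdcd1, Lag3 and Ctla4 above. The 28 cytotoxic and effector genes summed to 3780 CPM in replicate 3, against 2680 and 2730 CPM in the other OT-I libraries with molar-equivalent OVA and 2670 to 2870 CPM with saline. Without it the log2 fold change over both cell types was -0.29 for Gzmb, which was 0.29 with it. Cxcr5, the homing receptor of follicular T cells, was the panel gene with an unadjusted p under 0.05 in the higher direction. It had 18.2, 32.5 and 32.6 CPM in OT-I cells with molar-equivalent OVA, against 16.3, 21.7 and 21.3 CPM with saline, and in OT-II cells 8.25, 14.4 and 19.0 CPM with molar-equivalent OVA, against 10.9, 5.19 and 8.65 CPM with saline. The groups overlapped in both cell types, with a log2 fold change of 0.62 (0.13 to 1.11, adjusted p = 1 in edgeR). Cxcr5 is also a B cell gene. B cell markers summed to 336, 3420 and 872 CPM in OT-I cells with molar-equivalent OVA, against 398 to 902 CPM with saline. In OT-II cells they summed to 333, 735 and 1280 CPM with molar-equivalent OVA, against 342 to 1000 CPM with saline. Their part in the Cxcr5 value was not tested.

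The 8 genes with the lowest p below 0, at a mean of 10 CPM or more, were Gm17571, Pim1, Jun, Frat2, Tob2, Dusp1, Fos and Jund. None was called by edgeR, and Jun, Dusp1, Fos and Jund belong to the list of heat shock and handling stress genes, which cells also switch on after receptor signals. Gm17571 reached a mean of 10 CPM only through OT-II saline, at 2030, 76.6 and 2.46 CPM. It had 0.195 CPM or less in the other libraries of the 12, so its rank and its level come from the same saline libraries. Pim1, a serine kinase of cytokine signalling (GRCm38 chr17:29490753-29496112), had 25.9, 36.8 and 35.5 CPM in OT-I cells with molar-equivalent OVA, against 41.1, 53.8 and 39.9 CPM with saline, and in OT-II cells 41.8, 43.8 and 44.0 CPM with molar-equivalent OVA, against 87.4, 82.5 and 67.9 CPM with saline. All libraries with molar-equivalent OVA lay below all libraries with saline in each cell type. Such a separation was found for 0.189% of genes tested. Pim1, like the others of the 8, was chosen for its low p in these same libraries. Its log2 fold change was -0.67 (-0.93 to -0.40, adjusted p = 0.69 in edgeR and 0.0013 in DESeq2).

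Jun, a subunit of the AP-1 transcription factor (chr4:95049034-95052222), had 299, 294 and 426 CPM in OT-I cells with molar-equivalent OVA, against 568, 704 and 428 CPM with saline. In OT-II cells Jun had 819, 730 and 927 CPM with molar-equivalent OVA and 1550, 1510 and 1030 CPM with saline. The groups did not overlap, though OT-I replicate 3 of both treatments lay side by side, and the log2 fold change was -0.73 (-1.03 to -0.42, adjusted p = 0.84 in edgeR and 0.0013 in DESeq2). Fos, the partner of Jun in AP-1 (chr12:85473890-85477273), had 151, 111 and 212 CPM in OT-I cells with molar-equivalent OVA, against 257, 339 and 210 CPM with saline, and in OT-II cells 266, 147 and 265 CPM with molar-equivalent OVA, against 381, 479 and 295 CPM with saline. Its OT-I groups overlapped by 1 library and its OT-II groups did not. The log2 fold change was -0.76 (-1.17 to -0.35, adjusted p = 1 in edgeR and 0.046 in DESeq2).

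Dusp1, a phosphatase that switches off MAP kinases, had 143, 97.0 and 155 CPM in OT-I cells with molar-equivalent OVA, against 187, 190 and 184 CPM with saline, and in OT-II cells 305, 200 and 343 CPM with molar-equivalent OVA, against 427, 503 and 374 CPM with saline. The groups did not overlap in either cell type, with a log2 fold change of -0.56 (-0.86 to -0.27, edgeR adjusted p = 1). Further AP-1 subunits gave -0.51 for Junb (-0.83 to -0.19) and -0.28 for Jund (-0.44 to -0.13). Hspa1a, an inducible heat shock protein of the HSP70 family, gave -0.86 (-1.36 to -0.35), and its near-identical neighbour Hspa1b gave -0.83 (-1.34 to -0.33), a pair between which the counting could split reads. Frat2, an activator of Wnt signalling, had a log2 fold change of -0.40 (-0.57 to -0.22) and Tob2, an antiproliferative protein, one of -0.28 (-0.42 to -0.14). The adjusted p for Frat2 was 0.87 in edgeR and 0.022 in DESeq2, and that for Tob2 was 1 and 0.046.

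**Figure D3:**
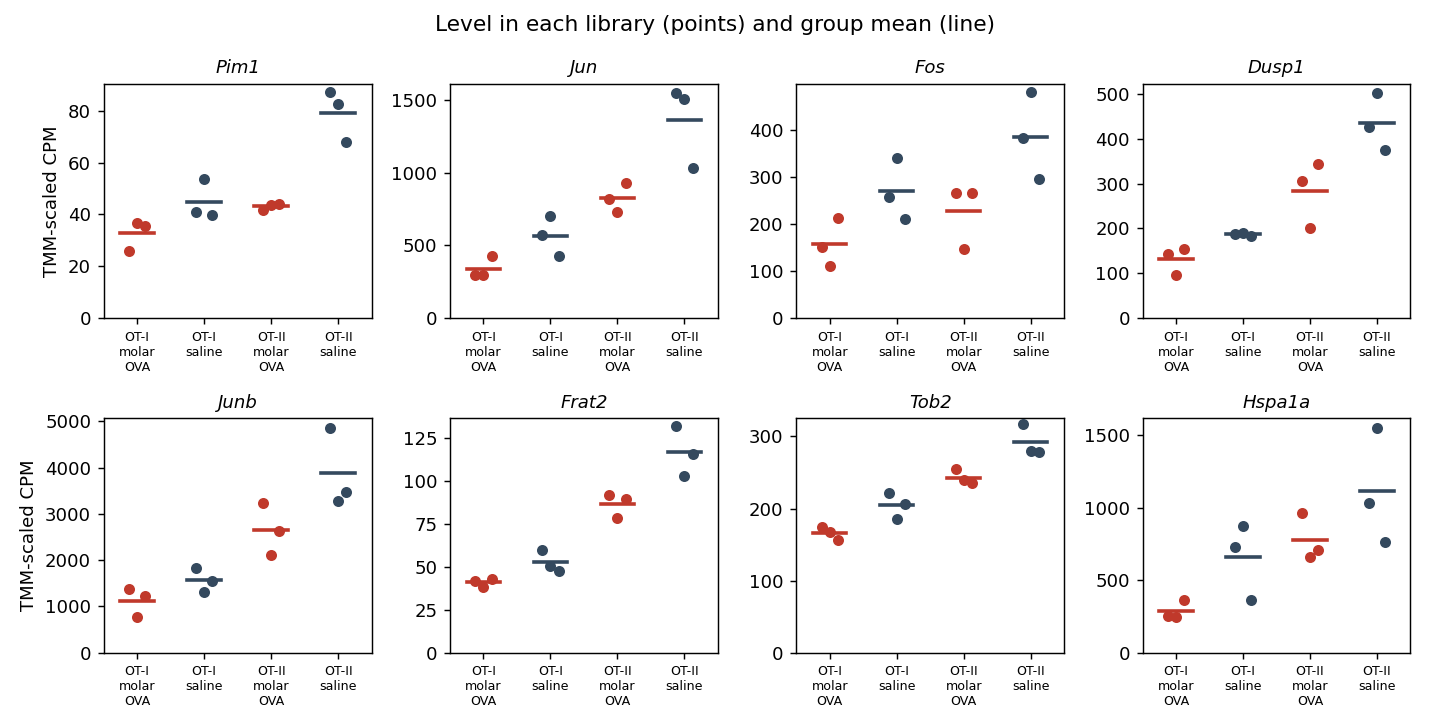
TMM-scaled CPM of 8 genes in each library (points) with the group mean (line), molar-equivalent OVA in red and saline in dark blue, for OT-I and then OT-II cells. Pim1, Jun, Dusp1, Frat2 and Tob2 have no overlap between molar-equivalent OVA and saline in either cell type, while Fos, Junb and Hspa1a overlap in at least 1 of them. The genes were chosen for low p-values in these same libraries, so the separation is a description. Over all genes tested, 0.189% had no overlap in either cell type in the lower direction.

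Across the list of 26 heat shock and handling stress genes, 0 were called, 24 lay below 0 and 2 above, and the median log2 fold change was -0.25, against 0.0111 over all genes. Over all genes tested, 46.8% lay below 0. At an unadjusted p under 0.05, 11 of the 26 were lower and 0 were higher, against 1.81% and 1.35% of all genes tested. The 2 above 0 were chaperones that resting cells make too, Hspa8 at 0.02 and Hspd1 at 0.01 on the log2 scale, and each lay below 0 when some single libraries were left out. The summed level of the list was 10300 to 13800 CPM in OT-I cells with molar-equivalent OVA, against 13600 to 16000 CPM with saline. In OT-II cells it was 14800 to 19400 CPM with molar-equivalent OVA and 18300 to 23700 CPM with saline. On the log2 scale the sums were 0.29 lower with molar-equivalent OVA (exact permutation test within cell types, two-sided, p = 0.025, adjusted p over 7 summed lists = 0.18, smallest p possible 0.005). Without the 4 libraries with raised markers the median was -0.18, with 8 members lower at an unadjusted p under 0.05, and the difference of the sums, an alternative chosen after seeing the data, was -0.24 on the log2 scale. These genes respond to cell handling as well as to receptor signals, and how far handling differed between the groups was not tested.

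The same genes are set beside the other treatments, whose comparisons share the saline libraries. The heat shock and handling stress list was lower over saline with these treatments too. With higher-dose OVA its median was -0.33, with 25 of 26 below 0 and 0 called. With A8B1-OVA its median was -0.48, with 20 below 0, 13 called lower and 3 called higher. Over all 15235 genes, 1347 were called lower and 1738 higher with A8B1-OVA. Pim1 had a log2 fold change of -0.42 with higher-dose OVA over saline (adjusted p = 0.28 in edgeR) and -0.99 with A8B1-OVA over saline (adjusted p = 0.00019). For Jun the values were -0.51 (adjusted p = 0.57) and -1.42 (adjusted p = 0.0025), and for Fos -0.69 (adjusted p = 0.50) and -1.38 (adjusted p = 0.011). All 3 genes were chosen for low values against these same saline libraries, so the values are a description. In OT-I cells Jun had 796, 278 and 256 CPM with higher-dose OVA, against 568, 704 and 428 CPM with saline, so that 1 library lay above all saline libraries.

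The genes with the lowest p above 0 had small estimates. Exo5, a DNA exonuclease, had a log2 fold change of 0.36 (0.13 to 0.59) and Kpna2, a nuclear import factor, one of 0.29 (0.11 to 0.48). A pair of enzymes of mitochondrial fatty acid oxidation was among them, Cpt2 with 0.30 (0.11 to 0.50) and Hadhb with 0.26 (0.09 to 0.43). Cpt2 had 25.7, 20.6 and 21.0 CPM in OT-I cells with molar-equivalent OVA, against 21.4, 18.7 and 17.3 CPM with saline, and in OT-II cells 22.4, 20.7 and 21.0 CPM with molar-equivalent OVA, against 16.7, 16.5 and 16.3 CPM with saline. The OT-II groups did not overlap, as for 3.81% of genes tested in the higher direction, and the OT-I groups overlapped. Tnfrsf13b, the gene of the TACI receptor known best from B cells, had 31.1, 45.8 and 42.6 CPM in OT-I cells with molar-equivalent OVA, against 27.6, 27.7 and 23.7 CPM with saline. In OT-II cells Tnfrsf13b had 37.8, 46.2 and 45.7 CPM with molar-equivalent OVA and 41.5, 36.2 and 36.2 CPM with saline. Its OT-I groups did not overlap and its OT-II groups did, with a log2 fold change of 0.39 (0.14 to 0.65), and the part of B cell markers in it was not tested. Mr1, which presents vitamin B metabolites to MAIT cells, had 0.39 (0.12 to 0.65). The telomere protein gene Tinf2 had 0.25 (0.08 to 0.41) and the zinc finger gene Zfp120 had 0.30 (0.10 to 0.51). Unadjusted p-values of these 8 genes ran from 0.0046 to 0.0073, and each had an adjusted p of 1 in edgeR.

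B cell markers lay above 0 as a group. All 20 members had a log2 fold change above 0, with a median of 1.15, 0 calls and 1 member (Cd22) at an unadjusted p under 0.05. Cd22, a B cell inhibitory receptor, had 5.08, 54.2 and 19.3 CPM in OT-I cells with molar-equivalent OVA, against 12.8, 7.71 and 6.70 CPM with saline, and in OT-II cells 6.83, 14.2 and 26.7 CPM with molar-equivalent OVA, against 17.0, 6.17 and 6.30 CPM with saline. The groups overlapped in both cell types and OT-I replicate 2 was the highest library. The summed markers were 0.68 higher on the log2 scale (exact permutation test, two-sided, p = 0.32, adjusted p = 0.85), and 1 library decided the list's median, which was 0.28 without OT-I molar-equivalent OVA replicate 2.

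**Figure D4:**
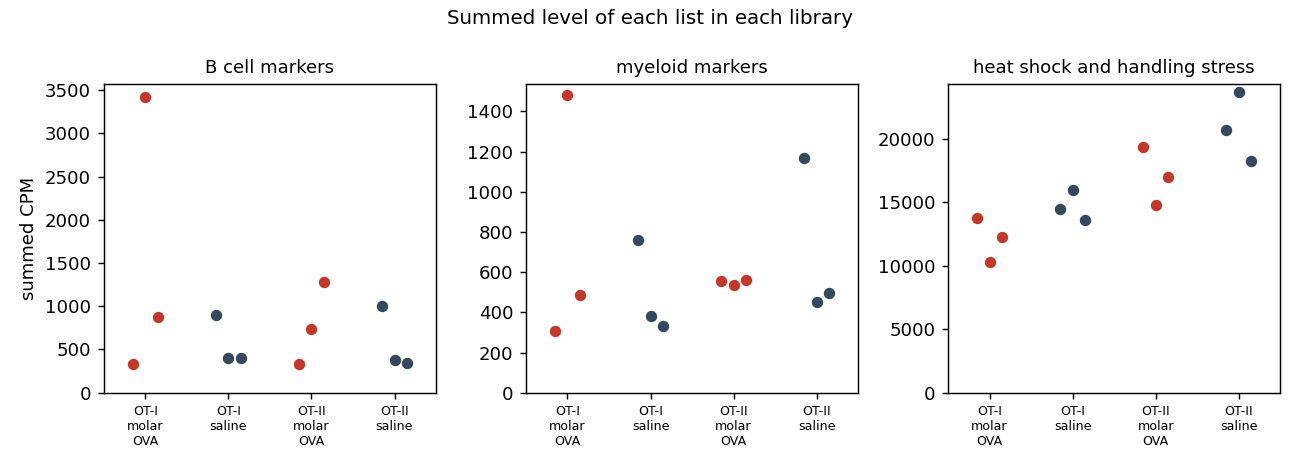
Summed plain CPM of the 20 B cell markers, the 28 myeloid markers and the 26 heat shock and handling stress genes in each library, molar-equivalent OVA in red and saline in dark blue. The B cell sum reaches 3420 CPM in 1 OT-I library with molar-equivalent OVA, and the heat shock sums are lower with molar-equivalent OVA in most libraries of each cell type.

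Fitted for each cell type, edgeR called 0 genes in OT-I, with 246 at an unadjusted p under 0.05, and 0 in OT-II, with 522 (0% of 14266 in each). DESeq2 called 1 gene in OT-I (Cd209b, a lectin of macrophages) and 15 in OT-II. The OT-II genes with DESeq2 included Pim1 and Ptpn4, a tyrosine phosphatase. Ptpn4 had 5.75, 7.37 and 5.13 CPM in OT-II cells with molar-equivalent OVA, against 10.5, 11.3 and 11.4 CPM with saline, and its log2 fold change in OT-II was -0.86 (edgeR adjusted p = 0.59). In OT-I cells it had 27.9, 36.5 and 39.5 CPM with molar-equivalent OVA, against 26.2, 35.2 and 31.6 CPM with saline. The OT-II groups did not overlap, as for 4.23% of genes tested in the lower direction, and the OT-I groups overlapped. The test of the difference between the cell types' responses called 0 genes in edgeR (0%), with 323 at an unadjusted p under 0.05, and 3 in DESeq2 (Gm17571, Olfr545 and Tinagl1), none of them Ptpn4. Its response in OT-II minus that in OT-I was -1.02 on the log2 scale (-1.56 to -0.47, edgeR adjusted p = 1).

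Over the 8451 genes with a mean of 10 CPM or more, 4677 (55.3%) had the same sign of fold change in both cell types, and Pearson's r across genes was 0.082 and Spearman's rho 0.142. The genes share libraries, depth and normalization and are not independent replicates, so these are descriptions. Groups did not overlap in either cell type for 15 genes in the higher direction (0.105% of genes tested) and for 27 in the lower direction (0.189%). Taken by cell type, the shares were 2.37% higher and 2.71% lower in OT-I, and 3.81% higher and 4.23% lower in OT-II.

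**Figure D5:**
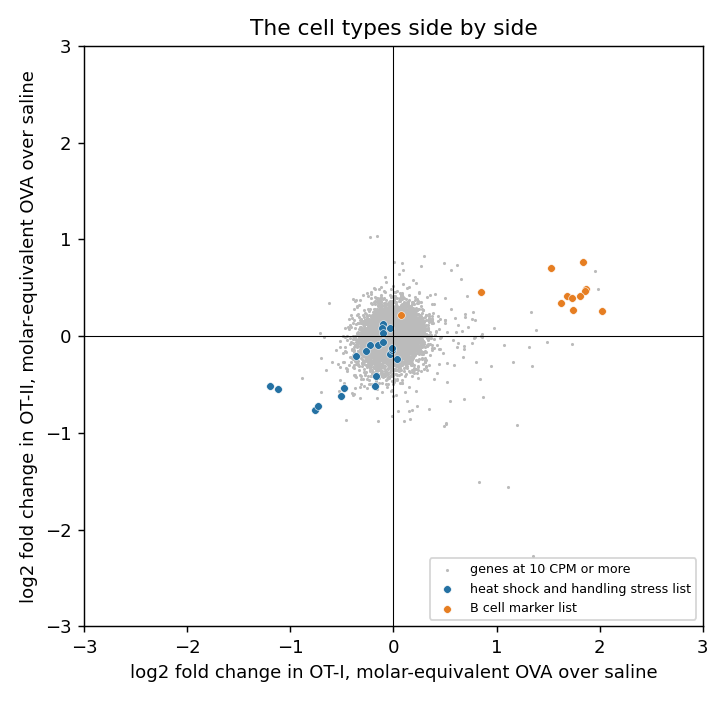
Log2 fold change of molar-equivalent OVA over saline in OT-I cells (horizontal) and in OT-II cells (vertical) for genes with a mean of at least 10 CPM, with 3 genes outside the axes. Heat shock and handling stress genes lie mostly below 0 in both cell types, and B cell markers reach further in OT-I.

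Molar-equivalent OVA differed from both other antigen treatments, tested in 1 fit of all 23 libraries. Against higher-dose OVA, 209 of 15235 genes were called (1.37%), 38 higher with molar-equivalent OVA (0.249%) and 171 lower (1.12%), of which 1 and 69 differed by more than 2-fold. The count depended on single libraries and on the tool. It was 66 without OT-II higher-dose replicate 3, 78 without OT-II higher-dose replicate 2, 95 and 122 without OT-I higher-dose replicates 2 and 3, 119 and 104 without replicate 1 of OT-I and of OT-II with molar-equivalent OVA, 317 without OT-I molar-equivalent OVA replicate 2, and 557 with DESeq2. Fell and rose here mean called lower or higher with molar-equivalent OVA than with the other treatment, as a mean over the 2 cell types. They do not mean a change from saline. Of the panel, 14 of 39 genes fell and 0 rose. The panel and the lists were chosen with earlier results of these data known, so their shares are descriptions.

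Markers of other cells differed in this comparison too. Of the 20 B cell markers 0 were called, 15 were higher with molar-equivalent OVA at an unadjusted p under 0.05 and the median was 1.56, with summed levels of 333 to 3420 CPM with molar-equivalent OVA and 356 to 497 CPM with higher-dose OVA. The OT-I library of higher-dose replicate 1 stood apart on CD4 lineage genes. Cd4 had 3.07, 10.3 and 2.26 CPM in OT-I cells with molar-equivalent OVA, against 163, 0.341 and 1.82 CPM with higher-dose OVA. Of the 7 CD4 lineage genes 0 were called and 4 were lower with molar-equivalent OVA at an unadjusted p under 0.05. Without that library 256 genes were called, 185 of them shared with the 209, and the part of these markers in the calls was not tested.

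Pdcd1, at 2.22 to 7.47 CPM in OT-I cells with molar-equivalent OVA, had 20.2, 21.9 and 36.8 CPM in OT-I cells with higher-dose OVA. In OT-II cells it had 11.2 to 18.9 CPM with molar-equivalent OVA, against 24.5 and 27.2 CPM with higher-dose OVA. Its log2 fold change was -1.66 (-2.24 to -1.09, adjusted p = 0.0033 in edgeR). Lag3 fell by 2.02 on the log2 scale, Ctla4 by 1.87, Cd200 by 1.23, Izumo1r by 1.70 and Nrp1 by 1.71, with adjusted p-values of 0.00037 to 0.0078 in edgeR. The Cd200 call was lost without OT-II higher-dose replicate 3 (adjusted p = 0.058), and the others held in the alternatives run. Of the 18 genes of the inhibitory receptor list 4 fell and 0 rose, with a median of -0.26 against 0.0191 over all genes. The Nrp1 value came mainly from OT-I cells, with group means of 4.12 CPM with molar-equivalent OVA and 37.2 CPM with higher-dose OVA. In OT-II cells its groups overlapped, with means of 25.2 and 29.5 CPM. The OT-II groups of Lag3, Ctla4, Cd200 and Izumo1r did not overlap. Itgb1, the beta-1 integrin of antigen-experienced T cells, had the lowest adjusted p of all genes. It had 112, 144 and 187 CPM in OT-I cells with molar-equivalent OVA, against 558, 936 and 1470 CPM with higher-dose OVA, and in OT-II cells 95.4, 131 and 149 CPM with molar-equivalent OVA, against 235 and 233 CPM with higher-dose OVA. Groups did not overlap, with a log2 fold change of -1.82 (-2.24 to -1.41, adjusted p = 9.5e-05).

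Cxcr5 and Cxcr3 fell by 1.72 and 1.58 on the log2 scale against higher-dose OVA, with adjusted p-values of 0.00032 and 0.0018. Irf4 fell by 0.83 (adjusted p = 0.0051). Of the 50 cell cycle genes 8 fell and 0 rose, with a median of -0.97, among them Mki67 by 2.21 (adjusted p = 0.023, and 0.064 to 0.11 in 4 of the fits that leave out 1 library). Tspoap1, a synaptic adaptor gene, had the lowest log2 fold change of called genes at 10 CPM or more, at -2.74 (adjusted p = 0.028). In OT-I cells it had 1.09, 0.63 and 0.179 CPM with molar-equivalent OVA, against 62.4, 5.55 and 2.29 CPM with higher-dose OVA, and its highest library was the one with raised Cd4. In OT-II cells, where it was abundant, it had 111, 112 and 123 CPM with molar-equivalent OVA, against 129 and 172 CPM with higher-dose OVA. Without OT-I higher-dose replicate 1 the log2 fold change was -1.46 (adjusted p = 0.072), and its call was also lost in 7 other fits without 1 library. Zbtb32 fell by 2.00 (adjusted p = 0.033), a call lost in 9 fits without 1 library (adjusted p of 0.051 to 0.11). Zbtb32 had group means of 3.66 CPM with molar-equivalent OVA and 42.5 CPM with higher-dose OVA in OT-I cells. In OT-II cells its means were 2.16 and 2.93 CPM. Genes called higher with molar-equivalent OVA than with higher-dose OVA had smaller sizes. Igfbp4, a binding protein of insulin-like growth factors, was higher by 0.79 and the gut-homing receptor gene Ccr9 by 0.71. Rgmb, a co-receptor of bone morphogenetic proteins, was higher by 0.70. Igfbp4 had group means of 495 CPM with molar-equivalent OVA, 502 CPM with saline and 209 CPM with higher-dose OVA in OT-I cells. In OT-II cells the means were 346, 391 and 274 CPM. Gm12185 and Tgtp1, an interferon-induced GTPase, rose by 0.96 and 0.77 and Plekho1, a signalling adaptor, by 0.70. Each of these 6 calls was lost without OT-II higher-dose replicate 2, with adjusted p-values of 0.066 to 0.21. Il7r did not pass, at 0.53 (0.22 to 0.84, adjusted p = 0.099), nor did Gzmb, at -1.19 (-2.12 to -0.26, adjusted p = 0.24).

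Against A8B1-OVA, 3117 of 15235 genes were called (20.5%), 1392 higher with molar-equivalent OVA (9.14%) and 1725 lower (11.3%), with 285 and 540 beyond 2-fold. Of the panel, chosen with earlier results of these data known, 23 of 39 genes fell and 7 rose. Pdcd1 had 2.22 to 7.47 CPM in OT-I cells with molar-equivalent OVA, against 94.1, 94.1 and 56.7 CPM with A8B1-OVA. In OT-II cells it had 11.2 to 18.9 CPM with molar-equivalent OVA, against 80.3, 96.1 and 69.4 CPM with A8B1-OVA, and its log2 fold change was -3.31 (-3.89 to -2.73, adjusted p = 1.3e-07). Lag3, Cd200 and Izumo1r fell by 3.49, 3.13 and 3.12 on the log2 scale. Of the 18 genes of the inhibitory receptor list 9 fell and 2 rose, with a median of -0.40 against 0.0196 over all genes. Of the 50 cell cycle genes 49 fell and 0 rose, with a median of -2.28, including the DNA methylation regulator Uhrf1 by 2.70 and Mki67 by 2.88. Il7r rose by 1.51 (adjusted p = 5.7e-07). Eomes, a transcription factor of memory and exhausted CD8 cells, fell by 2.66 against A8B1-OVA (adjusted p = 1.9e-07) and by 1.14 against higher-dose OVA (adjusted p = 0.018), a call lost in 4 fits without 1 library (adjusted p of 0.057 to 0.075).

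Some genes separated molar-equivalent OVA from A8B1-OVA without a call against higher-dose OVA. The comparisons share the libraries with molar-equivalent OVA, and the difference between them was not tested. Tnfrsf9 had 26.7, 30 and 31.7 CPM in OT-I cells with molar-equivalent OVA, against 208, 221 and 150 CPM with A8B1-OVA, and in OT-II cells 23.6, 32.5 and 30.4 CPM with molar-equivalent OVA, against 333, 370 and 344 CPM with A8B1-OVA. It fell by 3.16 against A8B1-OVA (adjusted p = 3.2e-11), whereas against higher-dose OVA its log2 fold change was -0.37 (-0.68 to -0.06, adjusted p = 0.28). Egr2 fell by 1.70 against A8B1-OVA and had -0.25 (-0.62 to 0.12) against higher-dose OVA, and Xcl1 fell by 4.15 and had -0.07 (-0.70 to 0.56). Cxcr3 did not pass against A8B1-OVA, at -0.65 (-1.14 to -0.17, adjusted p = 0.052, and 0.02 in DESeq2). The highest fold changes over A8B1-OVA at 10 CPM or more were those of Ngp, S100a8 and S100a9, genes of neutrophils, the lysozyme gene Lyz2, the antiviral gene Ifitm3 and the protease gene Napsa. Their log2 fold changes were 2.02 for Napsa to 6.27 for Ngp, and 16 of 28 myeloid and 13 of 20 B cell markers were higher. Myeloid markers summed to 307 to 1480 CPM with molar-equivalent OVA and to 243 to 411 CPM with A8B1-OVA. Without OT-I molar-equivalent OVA replicate 2 the log2 fold change was 1.04 for Lyz2 (adjusted p = 0.24), 1.16 for Napsa (0.14), 2.56 for S100a8 (0.057) and 2.54 for S100a9 (0.054). The part of these markers in the other calls was not tested.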

How the data were processed

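Libraries were made from polyA RNA of sorted cells. The authors deposited 1 table of estimated counts for 21900 protein-coding genes in 23 libraries, as whole numbers. Reads were demultiplexed with bcl2fastq and quantified with kallisto 0.46.1 on GRCm38, per the submitters' processing notes; strand, annotation release and summing over transcripts are not stated there. Positions come from GENCODE M21 on GRCm38.

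The 12 libraries were fitted with edgeR 4.0.16 (R 4.3.3), with cell type and treatment as terms. Low genes were removed by filterByExpr (count 10, total 15), factors were TMM, and the quasi-likelihood test was used with Benjamini-Hochberg adjustment over all genes tested and calls at an adjusted p under 0.05. Each cell type and their difference came from a fit with 1 coefficient per group, and contrasts with higher-dose OVA and A8B1-OVA from a fit of all 23 libraries. Intervals are 95% and use the moderated degrees of freedom. Each library's level is its CPM with TMM factors, summed markers use plain CPM, and a count of 0 allows up to 3 counts of the total. That limit covers counting error only, as PCR copies were not told apart. Summed levels were compared by an exact permutation test within cell types.

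Alternatives were RLE factors, no filter, DESeq2 1.42.0, limma-voom of limma 3.58.1, all 23 libraries, marker covariates, replicate blocks and leaving out libraries. The fit was tested on simulated data. The members, the 24 lists and the panel of 39 genes were chosen with earlier results of these data known. Genes named were the 8 of lowest p in each direction with a mean of 10 CPM or more, 4 and 4 in each cell type and in their difference, the panel, up to 4 of lowest p per list, and the 6 and 6 called genes of largest size against higher-dose OVA and A8B1-OVA. Other genes named were chosen after their values were seen. Some genes are not reported here.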

Additional observations from a re-analysis of the deposited data

How the results depend on the processing

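The count of 0 genes for both cell types held with RLE factors, no filter, limma-voom, all 23 libraries, marker covariates and without the libraries with raised markers. It also held in limma-voom with a random block that joined the OT-I and OT-II libraries of the same treatment and number. The labels do not say that such libraries share mice. The count was 7 with DESeq2, and without single libraries it ran from 0 to 1, the 1 being Gm17571 without OT-II saline replicate 3. DESeq2 gave 1 call in OT-I, 15 in OT-II and 3 for the difference between cell types, and OT-II without single libraries gave 0 to 2, the 2 without OT-II saline replicate 3. Against higher-dose OVA, DESeq2 gave 557 calls and single libraries left out gave 66 to 317. Counts against A8B1-OVA stayed within 1.5 times in the alternatives run.

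Same-numbered libraries of the 2 treatments within a cell type had correlations of -0.445 to 0.248 in their deviations from the group means, so the numbers did not pair them. Between OT-I and OT-II libraries of the same treatment and number the correlations were 0.339, 0.035 and -0.158 with molar-equivalent OVA and 0.507, 0.327 and 0.246 with saline. For different numbers they ran from -0.44 to 0.234, a hint from the data and not from the labels. Deviations within a group sum to 0, so values for different numbers are tied to those for the same number. They are not an independent reference. With a replicate block of cell type by number, 1 gene was called for both cell types and 1 in OT-II, and with the number shared by the cell types 1 (Gm17571 each time). Under the block Lag3 had -0.24, and -0.05 with the shared number.

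Against higher-dose OVA 31 of 752 values changed sign and against A8B1-OVA 1 of 799, with 0 of them in called genes. Of 3562 values of 162 genes against saline over 22 alternatives, 157 changed sign, in 51 genes. As edgeR called no gene against saline, none of these could be a called gene. Among genes in the text, leaving out the raised-marker libraries gave 0.29 for Pdcd1, -0.09 for Nrp1, 0.13 for Tnfrsf9 and -0.04 for Itgb1. Marker covariates gave 0.05 for Pdcd1, -0.44 for Gzmb, -0.08 for Cxcr3 and -0.17 for Itgb1. limma-voom gave -0.37 for Lag3, and with the random block -0.40 for Lag3 and -0.01 for Itgb1. Without single libraries the ranges were -0.36 to 0.17 for Pdcd1, -0.52 to 0.25 for Lag3, -0.13 to 0.23 for Ctla4, -0.08 to 0.27 for Nrp1, -0.07 to 0.24 for Egr2, -0.07 to 0.08 for Tnfrsf9, -0.29 to 0.56 for Gzmb, -0.10 to 0.13 for Itgb1, -0.07 to 0.09 for Hspa8, -0.06 to 0.06 for Hspd1, and -0.37 to 0.23 for Xcl1 against higher-dose OVA. Summed markers ranged from -0.10 to 0.10 (NK), -0.63 to 0.06 (erythroid), -0.23 to 0.33 (myeloid) and -0.49 to 0.01 (platelet). The causes were not tested. Genes under 1 CPM were measured too coarsely to bound a 2-fold difference in most cases.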

Other observations

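A few genes were far above all other libraries in OT-II saline replicate 1, and were picked after their values were seen. Gm17571 (GRCm38 chr9:13444034-13446753, minus strand) had 0.195, 0.158 and 0 CPM in OT-II cells with molar-equivalent OVA, against 2030, 76.6 and 2.46 CPM with saline. In OT-I libraries it was at 0.0741 CPM or less. Cd80, the gene of a costimulatory ligand on chromosome 16, had 5.63, 2.89 and 5.6 CPM in OT-II cells with molar-equivalent OVA, against 428, 51.3 and 10.6 CPM with saline. Plekhg3 on chromosome 12 had 1.99, 2.44 and 2.54 CPM in OT-II cells with molar-equivalent OVA, against 188, 24.6 and 2.03 CPM with saline. Replicate 1 was the highest saline library for each, and the levels with molar-equivalent OVA lay close together.

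Olfr545 on chromosome 7 had 0.905, 1.13 and 0.902 CPM in OT-II cells with molar-equivalent OVA, against 48.2, 6.88 and 9.9 CPM with saline. Gm21961 reached 46.7 CPM in OT-II saline replicate 1. Of 6 genes with at least 10 CPM in their highest library and more than 20 times the median of the 12 libraries plus 0.5 CPM, 5 had that library as their highest. The other was Mpo, a neutrophil enzyme, with 24 CPM in replicate 2 of OT-I with molar-equivalent OVA and 18.7 CPM in OT-II saline replicate 1.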
